A study of Mus musculus with 6 samples.

Results

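The genes for the FGF receptors and the Frs adaptors were followed in mouse embryonic stem cells (ESCs) and in cells differentiated from them with retinoic acid (RA). The members were chosen by name, as the 4 receptors with a kinase domain (Fgfr1, Fgfr2, Fgfr3 and Fgfr4), the receptor-like gene Fgfrl1, and the adaptors Frs2 and Frs3. These are 7 of the 23235 gene rows of the deposited RNA-seq table, with 1 row each. Messenger RNA was sequenced from E14Tg2a, an established mouse ESC line, at passages 37 to 40. In the ESC condition, 3 samples were kept with leukaemia inhibitory factor (LIF), the cytokine that maintains mouse ESCs. In the other condition, 3 samples lost LIF and received 1 µM RA for 48 h, and these cells are called neuronal cells (NCs) in the study, while the labels name only the RA treatment. The labels name no engineered allele, and both conditions come from 1 line. The deposited table gives 1 FPKM value per gene and condition, pooled by Cuffdiff over the 3 samples, so the FPKM values carry no spread between replicates, no difference was tested here, and every fold below describes the pooled values. FPKM is a count of sequenced fragments divided by the length of the transcript and by the size of the library, and being a value per length it can be compared between genes.

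FGF receptors are membrane tyrosine kinases that dimerise when an FGF ligand and heparan sulphate bind outside the cell. The activated kinase phosphorylates Frs docking proteins, which are anchored at the inner membrane and bind the receptor through a PTB (phosphotyrosine-binding) domain, and these recruit Grb2 and Ptpn11 to start the Ras and ERK cascade. In mouse ESCs, autocrine Fgf4 and ERK are known to prime cells for leaving the pluripotent state, and Fgfr1 protein is also found in the nucleus, where the study mapped it on chromatin.

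A gene was called higher or lower in NCs when its FPKM differed at least 2-fold and reached 1 in at least one condition. All 7 members had at least 1 FPKM in both conditions. Of them, 3 were higher in NCs (Fgfr2, Fgfr3 and Fgfrl1), 0 were lower and 4 stayed within 2-fold, which is 42.9% higher against a background of 12.5% higher and 10.6% lower among the 13290 genes at this level. These genes were 1657 higher and 1412 lower as deposited, and 2349 higher and 980 lower when the conditions were scaled to the same total FPKM, under which the members were still 3 higher and 0 lower. The median log2 ratio of NC to ESC was 0.51 over the members and -0.03 over those 13290 genes. In a pooled measurement of a culture, fewer cells of a type and less RNA per cell cannot be told apart.

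The windows before the start sites of the 3 members that rose are shown here with that of Frs3, the member with the lowest ratio, so that their base composition can be read beside their levels. RefSeq start windows on GRCm38.p6, the mm10 assembly, were found for 6 of the 7 members, and Fgfr1 had none. Each sequence below is the 250 bases before the start, 5′ to 3′ on the strand of the gene, and capitals mark the GC box GGGCGG on either strand, where matches may overlap.

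Fgfr2, chr7:130266809-130267058, minus strand: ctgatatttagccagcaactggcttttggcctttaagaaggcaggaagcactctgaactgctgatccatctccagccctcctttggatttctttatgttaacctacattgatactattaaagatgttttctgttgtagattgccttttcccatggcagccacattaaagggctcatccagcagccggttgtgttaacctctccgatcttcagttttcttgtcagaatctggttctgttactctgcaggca

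Fgfr3, chr5:33721474-33721723, plus strand: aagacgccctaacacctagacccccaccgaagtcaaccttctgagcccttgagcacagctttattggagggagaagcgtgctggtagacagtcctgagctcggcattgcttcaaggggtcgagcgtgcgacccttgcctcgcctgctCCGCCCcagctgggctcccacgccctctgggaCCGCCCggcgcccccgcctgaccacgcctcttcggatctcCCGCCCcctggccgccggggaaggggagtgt

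Fgfrl1, chr5:108693979-108694228, plus strand: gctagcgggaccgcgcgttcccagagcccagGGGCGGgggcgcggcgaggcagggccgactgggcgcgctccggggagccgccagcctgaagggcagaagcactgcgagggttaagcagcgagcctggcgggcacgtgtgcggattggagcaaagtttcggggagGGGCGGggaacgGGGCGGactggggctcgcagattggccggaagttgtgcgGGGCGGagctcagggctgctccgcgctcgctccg

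Frs3, chr17:47694957-47695206, plus strand: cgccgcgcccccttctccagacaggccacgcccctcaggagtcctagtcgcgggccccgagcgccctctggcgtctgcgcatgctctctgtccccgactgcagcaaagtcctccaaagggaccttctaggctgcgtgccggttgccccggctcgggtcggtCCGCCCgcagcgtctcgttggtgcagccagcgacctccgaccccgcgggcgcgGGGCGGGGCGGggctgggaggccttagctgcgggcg

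The Fgfr2 window held no GC box, while those of Fgfr3, Fgfrl1 and Frs3 held 3, 4 and 3. A GC box is the site bound by Sp-family factors, and 32.7% of all 32851 RefSeq windows of this length hold at least one. GC content was 44% in the Fgfr2 window, 66.8% in that of Fgfr3, 73.6% in that of Fgfrl1 and 74% in that of Frs3, against a median of 52.4%. The observed-to-expected ratio of CpG was 0.167 for Fgfr2, and 25% of all windows were lower. It was 0.694 for Fgfr3, 0.951 for Fgfrl1 and 0.88 for Frs3, and the median was 0.373. The Fgfr2 window ends 545 bases before the nearest transcript start of GENCODE M21, whereas the Fgfr3 window ends at such a start, so the Fgfr2 window may not be the region before the start in use here. The Frs3 window lies before a start inside the span of the gene. The CCAAT box, which 33.8% of windows hold on either strand, was present once in the Fgfr3 window and 2 times in that of Fgfrl1. The remaining windows, a further Fgfr3 start and those of Fgfr4 and Frs2, each held 2 GC boxes. The letters AGGTCA, the core to which nuclear receptors such as those for RA bind, were in 14% of all windows and in none of the member windows, and the TATA box letters TATAAA were in 12.4% of all and in none of the members. A match is a description of the sequence, and the lack of a match says only that the letters are not in these windows.

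Fgfr1, the receptor that the study followed on chromatin, was the most abundant member in both conditions. Its FPKM was 31.0 in ESCs and 44.1 in NCs, a 1.42-fold higher value that did not reach the 2-fold limit. Its log2 ratio of 0.51 was above that of 77.2% of the 13290 genes, and its level was above that of 76.3% of them in ESCs and 84.5% in NCs. The gene spans 57 kb on the plus strand of chromosome 8, from 25518759 to 25575718, and GENCODE M21 lists 19 transcripts, 9 of them coding. The longest has 18 exons and encodes 833 residues. Because the table has 1 value per gene, the membrane and secreted or alternatively spliced forms of a receptor are summed in it.

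Fgfr2, a receptor whose epithelial and mesenchymal splice forms bind different FGF ligands, rose from 7.40 FPKM in ESCs to 26.6 in NCs. This was 3.59-fold, a log2 ratio of 1.85, and the difference of 19.2 FPKM was the largest among the members. Of all genes at this level, 94.3% had a lower ratio. Fgfr2 lay above 40.8% of the genes in ESCs and above 74.4% in NCs, so it passed from below the median gene (10.7 FPKM in ESCs) to well above it (10.8 FPKM in NCs). The gene lies on the minus strand of chromosome 7, from 130162451 to 130266808, and is the longest member at 104 kb, with 27 transcripts of which 17 are coding. An annotated Fgfr2 transcript starts within Ctbp2, and 2.47% of the 50-base words of Fgfr2 transcripts also occur in other genes on the same strand.

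Fgfr3, a receptor best known as a brake on cartilage growth and also expressed in neural progenitors, had the highest ratio of the members. It rose from 1.39 FPKM to 6.31, which was 4.53-fold and a log2 ratio of 2.18, above that of 95.6% of the genes. It was the lowest member in ESCs, where it exceeded only 11.2% of the genes, and in NCs it still lay below the median gene, above 36.1%. On the scale of log2(FPKM + 1), which shrinks ratios of low genes, its difference was 1.61 and that of Fgfr2 was 1.72, so the order of these members depends on the scale. Fgfr3 occupies 15.3 kb on the plus strand of chromosome 5, from 33721724 to 33737068. An annotated transcript on the opposite strand, G630022F23Rik, covers 11.2% of the 50-base words of Fgfr3, and whether the counting used strand is not given in the sources used here, so reads from both strands cannot be told apart.

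Fgfr4, which with the co-receptor Klb restrains bile acid synthesis in liver, was at 2.91 FPKM in ESCs and 2.65 in NCs. The log2 ratio of -0.14, or 1.10-fold lower, was near the median gene, and its sign turned to 0.16 when the conditions were scaled to the same total FPKM. In NCs it was the lowest member, above 18.8% of the genes. It spans 15.9 kb on the plus strand of chromosome 13, from 55152818 to 55168759, and has 3 annotated transcripts with 1 coding.

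Fgfrl1 encodes a receptor that binds FGFs and heparan sulphate but lacks the intracellular tyrosine kinase. It rose 2.71-fold, from 7.07 FPKM in ESCs to 19.2 in NCs, and 92.0% of genes had a lower ratio than its log2 value of 1.44. Its ESC level was close to that of Fgfr2 and its NC level was lower. It lies on the same chromosome and strand as Fgfr3, from 108694229 to 108706950, and its longest coding transcript has 7 exons and 529 residues, against 18 exons in each of the 4 kinase receptors. Set against the summed FPKM of the kinase receptors, Fgfrl1 amounted to 16.6% in ESCs and 24.1% in NCs.

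Neither adaptor gene passed the 2-fold limit. Frs2, the broadly expressed docking protein of FGF receptors, was at 11.4 FPKM in ESCs and 13.1 in NCs, 1.15-fold higher, and 26.1% of the genes differed less. Frs3, its relative described mainly in neural tissue, was at 8.30 FPKM in ESCs and 4.73 in NCs. The Frs3 value was 1.75-fold lower in NCs, a log2 ratio of -0.81 that was above that of 13.6% of the genes and did not reach the 2-fold limit. Frs2 exceeded Frs3 by 1.37-fold in ESCs and by 2.78-fold in NCs, and their sum was 19.7 FPKM in ESCs and 17.9 in NCs. For each FPKM of the adaptors there were 2.17 FPKM of kinase receptors in ESCs and 4.46 in NCs, a 2.05-fold higher ratio that does not depend on how the conditions are scaled.

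Frs2 lies on the minus strand of chromosome 10, from 117070127 to 117148474, and Frs3 on the plus strand of chromosome 17, from 47687607 to 47704286. The Frs3 locus is crowded. The antisense transcript Frs3os covers 12.1% of its 50-base words and has no row in the table. Tomm6, a gene of the mitochondrial import complex on the opposite strand, overlaps the first 780 bases of the Frs3 span. That overlap lies upstream of the start whose window is shown above. Tomm6 was at 100 FPKM in ESCs and 72.2 in NCs. Prickle4 and Gm21981, also on the opposite strand, overlap 6220 and 6849 bases of the span and have no row. Transcripts of Tomm6, Prickle4 and Gm21981 shared no 50-base word with those of Frs3 on either strand. How far reads from the overlapping genes entered the Frs3 value was not tested. No 50-base word was shared by any pair of members.

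**Figure D1:**
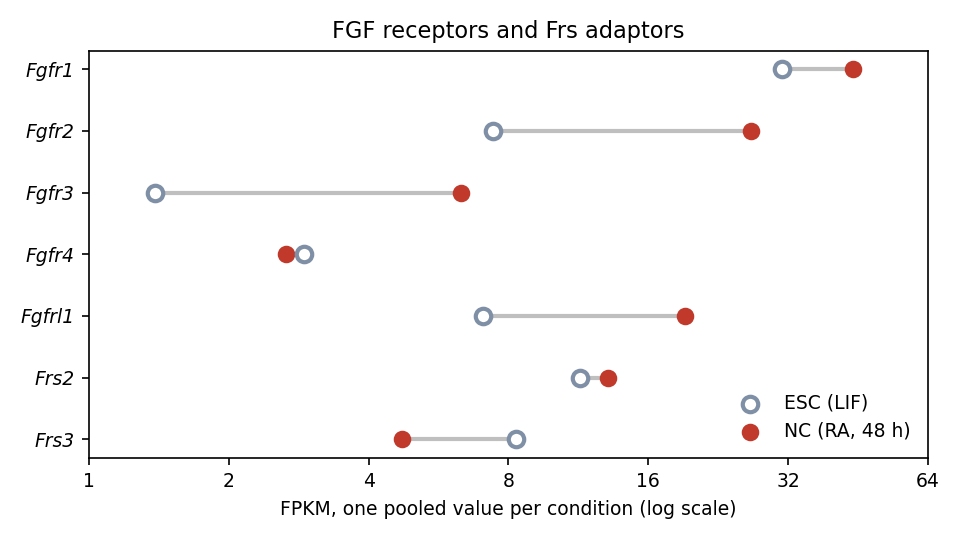
FPKM of the 7 members on a log axis, with open circles for ESCs, filled circles for NCs and a line joining the pooled values of each gene, with no error bars because each condition has 1 value. Fgfr2, Fgfr3 and Fgfrl1 have the longest lines, from 7.40 to 26.6, from 1.39 to 6.31 and from 7.07 to 19.2 FPKM, while Fgfr4 moves from 2.91 to 2.65 and Frs3 from 8.30 to 4.73.

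**Figure D2:**
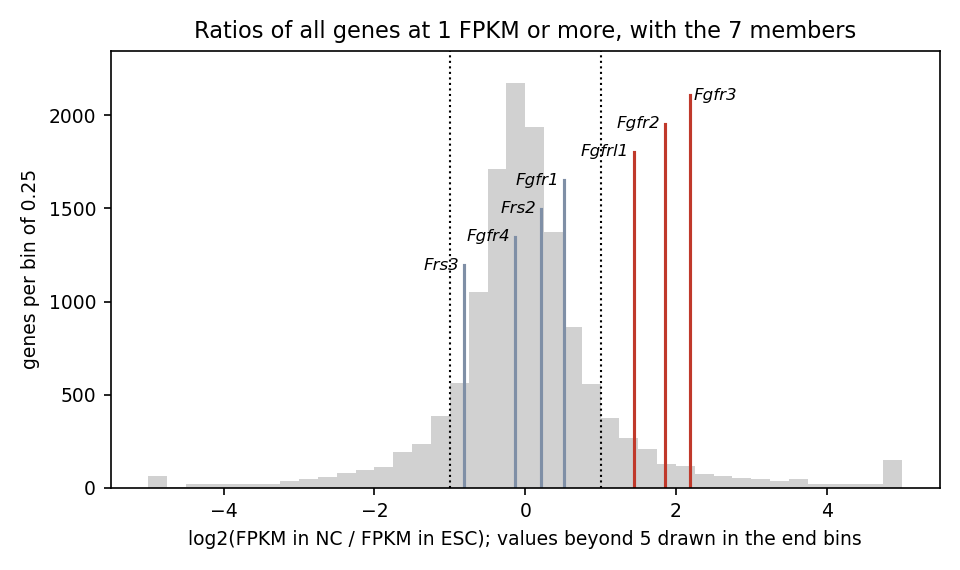
Histogram of the log2 ratio of NC to ESC FPKM for the 13290 genes with at least 1 FPKM in at least one condition, in bins of 0.25, with a vertical line at the ratio of each member and dotted lines at the 2-fold limits (line heights are set only to separate the names). Fgfrl1 at 1.44, Fgfr2 at 1.85 and Fgfr3 at 2.18 lie beyond the upper limit, and Frs3 at -0.81 lies inside the lower one.

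The order of the members by level was Fgfr1, Frs2, Frs3, Fgfr2, Fgfrl1, Fgfr4 and Fgfr3 in ESCs, and Fgfr1, Fgfr2, Fgfrl1, Frs2, Fgfr3, Frs3 and Fgfr4 in NCs. The FPKM columns give no spread between samples, so whether neighbours in this order differ was not tested. Close neighbours in ESCs were Fgfr2 at 7.40 FPKM and Fgfrl1 at 7.07.

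The summed FPKM of the 4 kinase receptors was 42.7 in ESCs and 79.6 in NCs. This 1.87-fold higher sum, a log2 ratio of 0.90, was within the 2-fold limit as deposited and passed it, at 1.19, when the conditions were scaled to the same total FPKM. Fgfr1 made up 72.6% of the sum in ESCs and 55.4% in NCs. The share of Fgfr2 was 17.3% in ESCs and 33.4% in NCs, that of Fgfr3 3.26% and 7.92%, and that of Fgfr4 6.83% and 3.33%. Fgfr2 gave 51.9% of the increase in the sum, Fgfr1 35.5% and Fgfr3 13.3%. Fgfr1 exceeded Fgfr2 by 4.19-fold in ESCs and by 1.66-fold in NCs. The ratio of Fgfr3 to Fgfr4 was 0.478 in ESCs and 2.38 in NCs, so the order of this pair turned. The shares of the sum and the ratios between receptors compare genes within a condition and are the same under any scaling between conditions. The parts of the increase compare the conditions, so they hold for the values as deposited and change with such scaling.

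**Figure D3:**
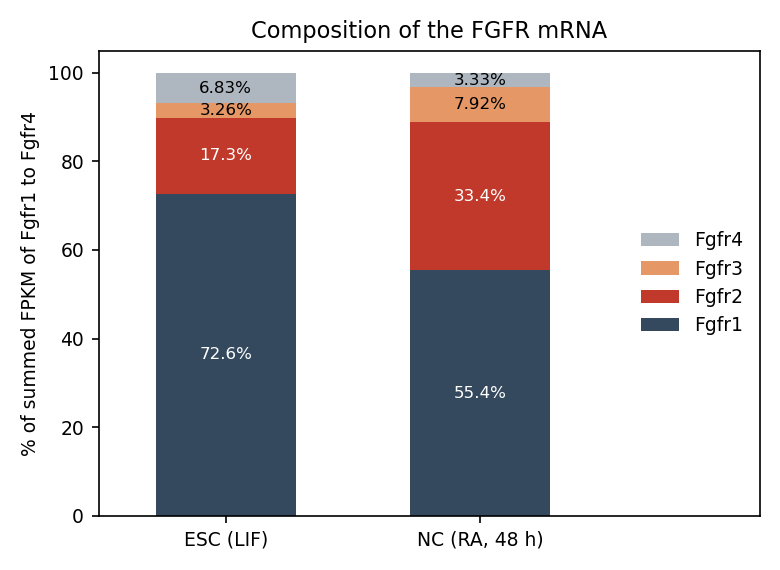
Stacked bars of the share of each kinase receptor in the summed FPKM of Fgfr1 to Fgfr4, in percent, for ESCs and NCs. The Fgfr1 part is 72.6% in ESCs and 55.4% in NCs, the Fgfr2 part is 17.3% and 33.4%, and Fgfr3 and Fgfr4 exchange places as the smallest part.

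Among the 58 receptor tyrosine kinase genes listed for mouse, 38 had at least 1 FPKM in at least one condition. Fgfr1 ranked 2 among them in both conditions, after Ptk7, a planar polarity receptor without an active kinase, which was at 53.3 FPKM in ESCs and 48.3 in NCs. Fgfr2 ranked 14 in ESCs and 4 in NCs, and Fgfr3 ranked 30 and 16. The 4 FGF receptors made up 12.6% of the summed receptor tyrosine kinase FPKM in ESCs and 21.6% in NCs, while that sum was 340 and 369. Of the 54 other kinases, 34 had at least 1 FPKM, of which 12 were higher in NCs (35.3%) and 4 lower (11.8%), with a median log2 ratio of 0.32. Over all genes 12.5% were higher, and the difference from this class was not tested. The kinase with the largest rise on the log2(FPKM + 1) scale was Epha7, an ephrin receptor of the developing brain, ahead of Fgfr2 and Fgfr3. Among the kinases that fell were Epha2, an ephrin receptor of pluripotent cells, from 22.8 to 4.25 FPKM, Epha1 from 9.95 to 2.77, and Erbb3, a neuregulin receptor, from 8.29 to 2.89.

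The kinases with the most similar pair of levels were named by their distance on the log2(FPKM + 1) scale over the 2 conditions. For Fgfr1 these were Ryk, a Wnt co-receptor at 23.9 and 30.6 FPKM in ESCs and NCs, at a distance of 0.63, and Ptk7 at 0.77. Fgfr2 was nearest to Erbb2, which went from 5.02 to 15.9 FPKM (distance 0.85), and to the ephrin receptor Ephb2, from 6.11 to 13.4 (0.97). Fgfr3 was nearest to Epha7, from 1.09 to 5.99 FPKM (0.21), and to Flt4, the lymphatic VEGF receptor, from 2.65 to 6.80 (0.62). For Fgfr4 they were Lmtk3, at 2.79 and 3.41 FPKM (0.28), and Egfr, at 2.55 and 1.8 (0.41). Fgfrl1, which has no kinase, was nearest to Fgfr2 (0.46) and Erbb2 (0.49).

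**Figure D4:**
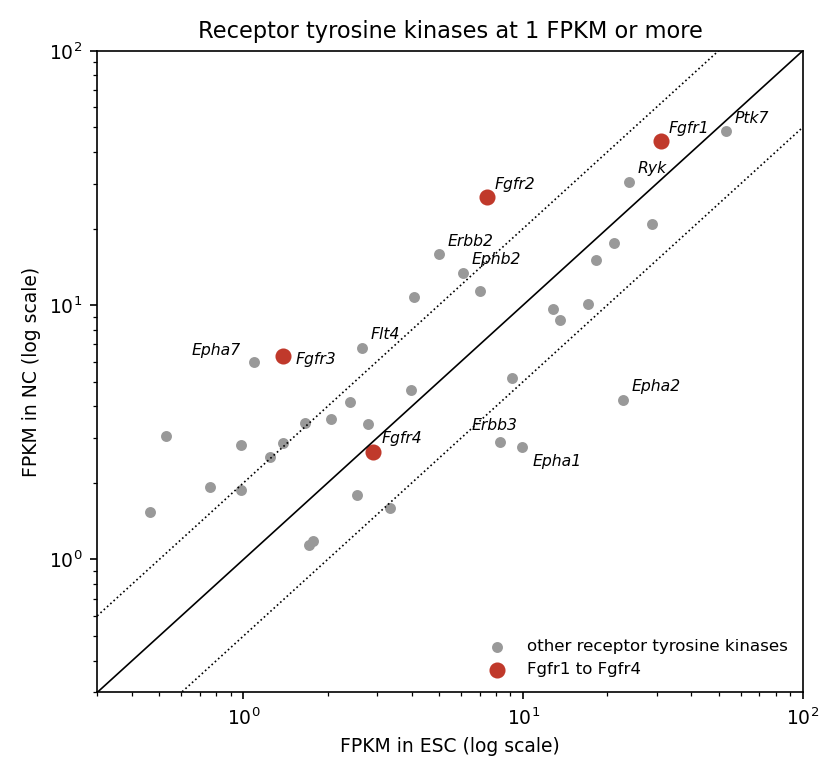
FPKM in NCs against FPKM in ESCs, both on log axes, for the 38 receptor tyrosine kinases with at least 1 FPKM in at least one condition, with the FGF receptors as large red points, a solid line of equal values and dotted lines at 2-fold. Fgfr2 at 7.40 and 26.6 and Fgfr3 at 1.39 and 6.31 lie above the upper dotted line, Fgfr1 at 31.0 and 44.1 and Fgfr4 at 2.91 and 2.65 lie between the lines.

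Other genes of the pathway were taken from 9 lists that hold 129 genes in all, of which 103 had at least 1 FPKM, 23 were higher in NCs and 14 were lower (34 and 13 when scaled to the same total). Over all 13290 genes 12.5% were higher and 10.6% lower. These shares are the background for each list below, and no difference from them was tested. Outside the cell, FGF receptors work with co-receptors and adhesion proteins that bind them. Of 9 such genes 7 were at this level, 4 rose and 1 fell, with a median log2 ratio of 1.27. Klb and Flrt2 passed the filter only in NCs, so this median depends on it. The genes at 1 FPKM in both conditions were Cdh2, Flrt3, Ncam1, L1cam and Il17rd. Their log2 ratios were 3.96, 3.73, 0.81, 0.22 and -1.55. Cdh2 (N-cadherin), which binds and stabilises Fgfr1 at the membrane, rose from 2.28 to 35.5 FPKM, 15.6-fold. Flrt3 and Flrt2, leucine-rich membrane proteins that interact with the receptors, rose from 1.28 to 16.9 and from 0.363 to 2.34 FPKM, and Klb, the beta-Klotho co-receptor, from 0.628 to 1.52. Il17rd (Sef), which inhibits FGF signalling, fell 2.93-fold, from 12.6 to 4.28 FPKM.

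Heparan sulphate, the sugar chain that joins ligand and receptor, is carried by core proteins of the syndecan and glypican families. Of 12 core genes 11 were at 1 FPKM, 3 rose and 1 fell, with a median of 0.69. Gpc3 rose 4.65-fold, from 52.6 to 245 FPKM, Gpc6 from 0.627 to 5.19 and Sdc2 from 2.66 to 10.8, while Sdc4 fell 3.06-fold, from 53.8 to 17.6. Among 22 enzymes that build, sulphate or trim the chain, 16 were at this level, 4 rose and 2 fell, with a median of 0.65. Hs6st2, a 6-O-sulphotransferase, rose 9.83-fold, from 1.47 to 14.5 FPKM. Ndst1, which begins sulphation of the chain, rose from 5.52 to 14.1, the glycosyltransferase Extl2 from 2.79 to 5.94 and the sulphotransferase Hs3st6 from 1.26 to 2.81. Extl1, a further glycosyltransferase, fell from 2.23 to 0.701 FPKM and Hs3st3b1, a sulphotransferase, from 2.77 to 1.37.

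Of 20 genes for docking and adaptor proteins that act beside or just after Frs2 and Frs3, 19 were at this level, 4 rose and 1 fell, with a median log2 ratio of 0.32. The core partners of the Frs proteins were within 2-fold, with Grb2 at 55.2 FPKM in ESCs and 70.0 in NCs, Ptpn11 at 25.4 and 34.7, and Gab1 at 61.9 and 38.8. Grb10, an imprinted adaptor that restrains insulin and growth factor receptors, rose 4.47-fold, from 8.84 to 39.5 FPKM, and Sos2, Shc2 and Gab2 rose from 3.22 to 7.92, from 3.93 to 9.12 and from 0.666 to 1.65. Plcg2, a phospholipase C, fell from 26.4 to 10.6. Of 16 genes of the Ras and MAPK cascade 15 were at this level, with a median of -0.04, and Hras was not analysed here. Only Rps6ka3, an ERK-activated kinase, was called among these 15, from 15.3 to 42.6 FPKM.

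Other docking proteins share the PTB domain of the Frs adaptors but serve insulin and other receptors. Of 10 such genes 6 were at 1 FPKM in at least one condition, 4 rose and 1 fell, with a median of 1.44. Irs1 and Dok5 passed this filter only in NCs and Dok2 only in ESCs, so the median depends on the filter. It was not compared with the log2 ratios of 0.21 for Frs2 and -0.81 for Frs3. Irs1 and Irs2, the insulin receptor substrates, rose from 0.880 to 6.13 and from 7.13 to 24.8 FPKM, Dok5 rose from 0.884 to 3.58 and Dok1 from 2.90 to 6.18. Dok2 fell from 4.19 to 0.810.

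Fgfr1 in the nucleus is known to work with Crebbp, Rps6ka1 and nuclear receptors of the RXR and Nur families. Of 11 such partner genes 10 were at this level, 2 rose and 1 fell, with a median of 0.36. Rxra, the dimer partner of RA receptors, rose 3.72-fold, from 5.17 to 19.2 FPKM, and Nr4a2 from 0.154 to 1.03. Nr4a1, which encodes Nur77, fell 2.77-fold, from 14.5 to 5.24. Crebbp was at 3.32 and 5.14 FPKM, Rxrb at 31.4 and 33.6 and Rps6ka1 at 63.7 and 34.0, all within 2-fold.

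Over genes at 1 FPKM in at least one condition, the median was -0.37 for the ligands and -0.79 for the feedback genes. The ligand median depends on this filter. Fgf4, Fgf5, Fgf8, Fgf17 and Fgf22 passed it only in ESCs, where they were higher, and Fgf18 only in NCs. The ligands at 1 FPKM in both conditions were Fgf1, Fgf3 and Fgf15, with log2 ratios of 1.19, 0.24 and -0.26. No direction of the ligands as a group is therefore read from the median. Of 18 FGF ligand genes 9 were at 1 FPKM, 1 rose and 3 fell. Fgf4, the autocrine ligand of ESCs, fell 80.3-fold, from 65.7 to 0.818 FPKM, Fgf17 fell from 6.05 to 0.206 and Fgf5 from 3.89 to 0.561, while Fgf1 rose from 1.40 to 3.21. The feedback list holds genes that ERK signalling induces and inhibitors of the cascade, and not every gene in it is a known ERK target. Of its 12 genes 11 were at this level, 0 rose and 4 fell. Spry4 and Spry2, inhibitors of the Ras cascade, fell from 15.0 to 0.308 and from 45.7 to 6.74 FPKM, and the transcription factors Etv5 and Etv4 fell from 116 to 7.57 and from 11.5 to 2.64. The other 7 stayed within 2-fold and moved in both directions, with Dusp6 at 21.9 FPKM in ESCs and 36.9 in NCs and Spry1 at 18.7 and 10.7.

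**Figure D5:**
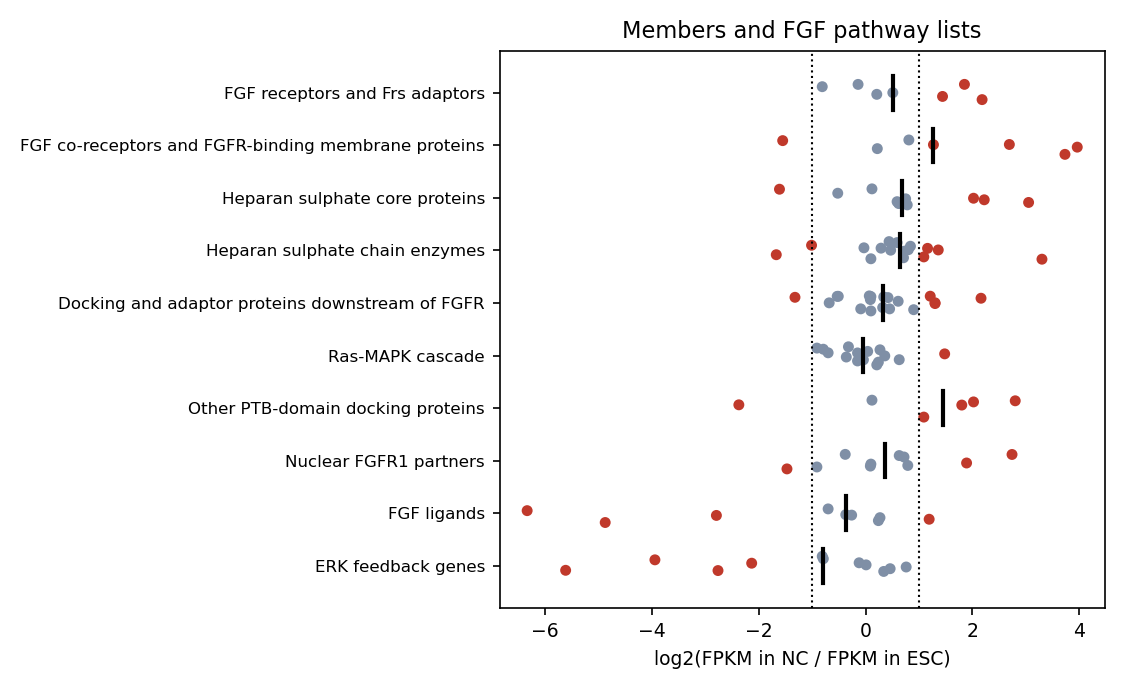
Log2 ratio of NC to ESC FPKM for the members and for 9 lists of pathway genes, 1 point for each gene with at least 1 FPKM in at least one condition, red beyond the dotted 2-fold limits, with a black bar at the median of each list. The median is 0.51 for the members, 1.27 for the co-receptors, -0.37 for the ligands and -0.79 for the ERK feedback genes. The co-receptor and ligand medians depend on the 1 FPKM filter.

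Markers of the culture state moved between the same conditions. All 5 pluripotency markers fell, from a summed 2047 FPKM to 77.9, with Pou5f1 from 832 to 37.1, Nanog from 225 to 13.9, Zfp42 from 299 to 22.9, Esrrb from 128 to 2.94 and Tdgf1 from 564 to 1.10. Of the 5 neural progenitor markers 4 rose, from a sum of 25.8 to 127 FPKM, with Pax6 from 3.64 to 65.2, Sox1 from 1.77 to 21.8, Zic1 from 0.0717 to 4.68 and Sox11 from 7.42 to 16.6, while Nes was at 12.9 and 18.3. No neuron marker was called higher in NCs. Tubb3 fell from 33.4 to 7.54 FPKM, Map2 was at 3.18 and 2.35, Rbfox3 at 1.11 and 0.832, Snap25 at 0.573 and 0.204 and Dcx at 0.0140 and 0.334, the last higher in NCs but under 1 FPKM in both conditions, and the sum over the 5 was 38.3 in ESCs and 11.3 in NCs. Markers of other cell types were also present in NCs. Of the 5 primitive endoderm markers 4 rose, from a sum of 16.2 to 37.7 FPKM, with Foxa2 from 0.617 to 5.24, Sox17 from 0.861 to 4.0, Dab2 from 9.0 to 19.3 and Gata6 from 2.37 to 5.48, while Gata4 was at 3.30 and 3.69. Of the 5 fibroblast markers 3 rose and 1 fell, with a sum of 31.6 and 50.3. Col1a2 rose from 3.47 to 23.3, Col1a1 from 5.78 to 13.0 and Twist2 from 0.483 to 1.86, Thy1 fell from 9.64 to 1.8, and Acta2 was at 12.2 and 10.3. Of the 5 mesoderm markers Meox1 alone reached 1 FPKM, from 0.253 to 5.43, while Kdr was at 0.339 and 0.697, Mesp1 at 0.133 and 0.110, T (brachyury) at 0.628 and 0.299 and Tbx6 at 0.888 and 0.808. The part of these cell types in the receptor values was not tested.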

How the data were processed

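RNA-seq of 3 ESC and 3 NC samples was analysed. The authors deposited FPKM for each gene, 1 value per condition. The submitters' processing notes name TopHat2 at version 2.0.8, Bowtie2 at 2.1.0, Cufflinks at 2.0.2 and Cuffdiff. The Cuffdiff version and the annotation release are not given in the sources used here. The NC column is headed FPK and was taken as FPKM. Further columns of the same table hold the comparison made by the authors (a log2 fold change, its statistic, p and q) and were not used.

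Ratios of NC to ESC were computed without a pseudocount. A gene was called at a 2-fold difference with at least 1 FPKM in at least one condition. No test was computed, since the FPKM columns hold 1 value per condition. Values sum to 770592 FPKM in ESCs and 628679 in NCs. Depth per sample is unknown, so no counting interval is given. The lowest values above 0 were 0.00145 FPKM in ESCs and 0.000823 in NCs, and the lowest members were at 1.39 and 2.65. The members and the gene lists were chosen with earlier results of these data known. All members were named, with the 2 nearest kinases of each, up to 3 called genes per list and direction with the most extreme difference in log2(FPKM + 1), the most abundant kinase and all culture markers. Klb, Hs3st6, Gab2, Dok1, Etv4, Tomm6 and the pathway genes given as within 2-fold were named after their values were seen. Some values of pathway genes are not reported here. Positions and windows came from RefSeq on GRCm38.p6 and transcripts from GENCODE M21. Alternatives were other fold limits, filters, a pseudocount, centring and scaling to the same total. Scripts ran in Python 3.11.15 with numpy 2.4.6, pandas 2.3.3 and matplotlib 3.10.9 and were tested on simulated data.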

Additional observations from a re-analysis of the deposited data

How the results depend on the processing

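Of 88 alternative values, 71 stayed on the same side of the 2-fold limit (log2 ratios), within 1.5 times of the reported number (counts) or equal as printed (shares). When the conditions were scaled to the same total FPKM, which shifts every log2 ratio by 0.29, the log2 ratio of Fgfr4 turned from -0.14 to 0.16 and that of the summed kinase receptors went from 0.90 to 1.19, past the 2-fold limit. The same scaling gave 2349 genes higher and 980 lower in NCs, against 1657 and 1412, and 34 and 13 pathway genes, against 23 and 14, and it turned the sign of the median of the Ras and MAPK list. Centring on the median gene shifted ratios by 0.05 and changed no call of a member. With a 4-fold limit, 1 member was higher (Fgfr3), and with a 1.5-fold limit 1 was lower (Frs3). The number of genes higher in NCs was 2740 at 1.5-fold, 678 at 4-fold, 1073 with a pseudocount of 1, 2944 with a filter of only an FPKM above 0 in both conditions and 821 with a filter of 5 FPKM. The number lower was 2572 at 1.5-fold, 488 at 4-fold, 2401 with that filter above 0 and 863 with a filter of 5 FPKM. Of the pathway genes outside the members, 41 were higher at 1.5-fold, 11 at 4-fold and 36 with the filter above 0, and 8 were lower at 4-fold. The lists were recounted together, not each alone. No paired analysis was possible because each condition has 1 pooled value, and for the same reason no replicate could be left out. The FPKM columns show neither depth nor the spread between samples, so whether differences as small as those of Fgfr1, Frs2 or Fgfr4 exceed it was not tested here, and strand and splice forms are not resolved.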
